A study of Mus musculus with 18 samples.

Results

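H3K4me3 regions called in every wild-type library and in no Tet1 mutant library mostly lay between genes and often lay in gene deserts. They were weaker at the median than the other regions that all wild-type libraries shared. Genes of neural adhesion and synapses were the nearest gene of 607 of these regions (19%), at a median distance of 446721 bp. They were the nearest gene of 3418 of the 60064 regions that all wild-type libraries shared. That list of genes was chosen with earlier results of these data known. Regions in every wild-type and no mutant library are called WT-only regions below. Overlapping peaks of 9 deposited H3K4me3 lists on chromosomes 1 to 19 were merged into 179043 regions, and a region was kept when a peak of all 3 wild-type libraries, and none of the 6 mutant libraries, overlapped it by at least 1 bp. This left 3203 regions, which is 1.79% of all merged regions and 5.33% of the 60064 regions that all 3 wild-type libraries had (every-WT regions). Every wild-type list was longer than every mutant list. With lists of equal length 536 regions met the rule, and 175 of them overlapped one of the 3203 (5.46% of the 3203). Presence of a peak in all 9 libraries chose the WT-only regions, so the differences between genotypes below are descriptions and carry no test.

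The libraries came from mouse prospermatogonia of embryonic stage E17.5, positive for an Oct4-GFP reporter and kept frozen, with 4000 nuclei per library. The 3 genotypes, each with 3 biological replicates, were Tet1+/+ (WT), Tet1-/- (KO) and Tet1HxD/HxD (HxD, an allele known as catalytically inactive), and all libraries carried the same batch label. Mutant alleles were homozygous, and the labels name no Cre driver. CUT&RUN located the mark: an antibody tethers a nuclease, which cuts out the DNA around it. The 9 IgG samples of the series were not analysed here.

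As background, H3K4me3 is a methyl mark on the tail of histone H3 that sits at active promoters and at poised ones, and weaker marks occur at enhancers and at open chromatin away from genes. Prospermatogonia are fetal male germ cells that have stopped dividing and rebuild the DNA methylation of their genome, and H3K4me3 hinders the methyltransferases that do so. TET1 oxidises methylated cytosine, binds CG-rich DNA and also brings histone-modifying partners to chromatin. The series title names roles of TET1 beyond catalysis as its subject.

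WT-only regions at gene starts had fewer CG dinucleotides at the median than other promoter regions of WT libraries, with a wide range, and 6 promoter windows show that range. They are RefSeq promoter windows of GRCm38.p6 (the assembly of mm10), 250 bases before to 50 after a gene start, 5′ to 3′ on the gene's strand, with CG dinucleotides in capitals. The first 4 are the coding-gene windows under the WT-only regions with the highest lowest WT fold, Gm46244 is the CG-richest window of the set, and Ddx4, a germ cell RNA helicase with a promoter peak in all 9 libraries, is the contrast.
Olfr978, chr9:39993562-39993861, plus strand: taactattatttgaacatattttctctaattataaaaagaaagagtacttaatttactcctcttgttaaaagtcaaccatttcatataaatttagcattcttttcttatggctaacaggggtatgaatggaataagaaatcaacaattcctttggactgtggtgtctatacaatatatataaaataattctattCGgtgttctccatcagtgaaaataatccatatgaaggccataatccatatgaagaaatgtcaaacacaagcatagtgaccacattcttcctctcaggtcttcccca
Olfr448, chr6:42896203-42896502, plus strand: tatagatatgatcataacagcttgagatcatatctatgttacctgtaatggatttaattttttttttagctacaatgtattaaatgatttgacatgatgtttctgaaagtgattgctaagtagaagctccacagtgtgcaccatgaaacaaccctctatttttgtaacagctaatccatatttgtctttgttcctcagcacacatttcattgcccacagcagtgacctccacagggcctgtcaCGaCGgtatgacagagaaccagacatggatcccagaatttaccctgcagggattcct
Olfr212, chr6:116506266-116506565, plus strand: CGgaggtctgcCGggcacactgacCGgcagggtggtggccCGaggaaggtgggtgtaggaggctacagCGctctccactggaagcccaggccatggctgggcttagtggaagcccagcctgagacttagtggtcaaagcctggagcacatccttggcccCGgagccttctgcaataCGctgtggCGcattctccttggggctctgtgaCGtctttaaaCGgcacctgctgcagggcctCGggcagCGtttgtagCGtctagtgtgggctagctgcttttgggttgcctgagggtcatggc
Scgb3a1, chr11:49663345-49663644, plus strand: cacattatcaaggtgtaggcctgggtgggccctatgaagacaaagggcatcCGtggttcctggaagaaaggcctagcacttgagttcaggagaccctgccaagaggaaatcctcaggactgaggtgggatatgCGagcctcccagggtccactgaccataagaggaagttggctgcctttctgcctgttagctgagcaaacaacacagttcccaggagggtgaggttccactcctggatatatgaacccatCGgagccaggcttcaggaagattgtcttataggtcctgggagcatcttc
Gm46244, chr1:113145271-113145570, plus strand: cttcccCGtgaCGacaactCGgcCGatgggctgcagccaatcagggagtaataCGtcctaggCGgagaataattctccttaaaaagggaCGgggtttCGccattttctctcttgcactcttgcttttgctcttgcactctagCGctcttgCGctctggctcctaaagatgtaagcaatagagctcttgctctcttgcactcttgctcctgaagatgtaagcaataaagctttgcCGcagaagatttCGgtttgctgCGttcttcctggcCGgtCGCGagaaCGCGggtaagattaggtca
Ddx4, chr13:112652261-112652560, minus strand: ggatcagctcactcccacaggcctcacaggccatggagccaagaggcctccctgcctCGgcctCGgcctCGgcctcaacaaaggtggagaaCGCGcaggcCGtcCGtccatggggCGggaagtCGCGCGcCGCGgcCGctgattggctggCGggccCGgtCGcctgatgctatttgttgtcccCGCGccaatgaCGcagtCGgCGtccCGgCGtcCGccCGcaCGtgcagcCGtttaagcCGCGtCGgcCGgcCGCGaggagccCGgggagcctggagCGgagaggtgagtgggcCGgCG
These windows hold 1, 2, 13, 3, 18 and 38 CG dinucleotides in the order printed. Olfr978, Olfr448 and Olfr212 encode odorant receptors, Scgb3a1 a secretoglobin, and Gm46244 a long noncoding RNA. The counts of Olfr212 and Gm46244 lie within the quartiles of the other regions given next, and that of Ddx4, the contrast, lies above them.

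WT-only regions overlapped 56 windows of 53 genes, 30 windows of coding and 26 of long noncoding RNA genes, with a median of 4.5 CG dinucleotides (quartiles 3 and 7). The 16992 windows under the other every-WT regions had a median of 19 (quartiles 10 and 28), and the 14348 windows under no every-WT region a median of 3. The sets differ in their share of noncoding genes, and the contrast was smaller there: coding windows had medians of 3.5 and 21, and long noncoding RNA windows (26 and 3509) 5 and 10. At least 10 CG were found in 12.5% of the windows under WT-only regions, 76.7% of those under the other every-WT regions, 5.28% of those under none and 44.0% of all 31396 windows. In CG count the WT-only windows at the median lay nearer to the windows without an every-WT region. The count rose with the number of mutant libraries that had the every-WT region, with a median of 5 where 1 mutant library had it, 6 where 3 had it, 8 where 5 had it and 21 where all 6 had it. The G and C share had a median of 48.3% in the WT-only windows and 60.3% in those of the other every-WT regions.

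**Figure D1:**
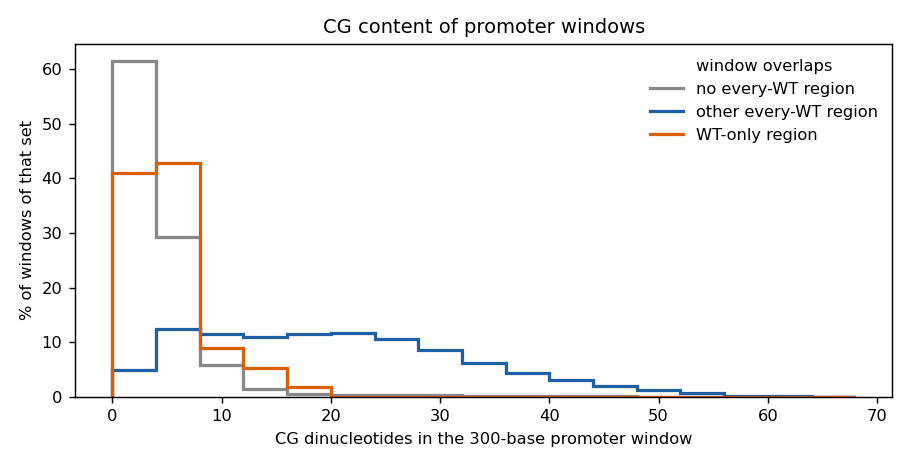
CG dinucleotides per RefSeq promoter window of 300 bases (x axis) against the percent of windows of each set (y axis, bins of 4), for windows overlapped by WT-only regions (56), by other every-WT regions (16992) or by no every-WT region (14348). The WT-only curve lies to the left with the windows under no every-WT region, with a median of 4.5, while the other every-WT windows spread around a median of 19.

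The lists differed in length, and these lengths bear on every count below. On the autosomes WT replicates 1, 2 and 3 had 92140, 81072 and 123424 peaks, the KO replicates 69919, 78045 and 67973, and the HxD replicates 66289, 48468 and 60726, so every WT list was longer than every mutant list. KO replicate 1 also had short peaks, with a median of 436 bp against 652 to 798 bp in the other 8 lists. Promoters of the 7 germ cell markers had a peak for 5 to 7 genes per library, with Ddx4, Dazl, Dnmt3l and Pou5f1 marked in all 9. Marker genes of somatic cells in the testis also had peaks, 4 to 6 of 6 Sertoli genes, 3 to 5 of 7 Leydig and interstitial genes and 3 or 4 of 6 endothelial and blood genes. The steroidogenic genes Cyp17a1 and Star and the leukocyte genes Ptprc and Csf1r had no promoter peak in any library. Summed over the markers, the promoter fold for germ cells ranged over 48.3 to 61.3 (WT), 54.7 to 80.1 (KO) and 45.2 to 84.5 (HxD), and for Sertoli cells over 46.4 to 65.8, 67.1 to 74.9 and 51.8 to 60.3. For Leydig and interstitial cells it was 32.1 to 69.9, 21.6 to 71.8 and 29.3 to 66.2, and for endothelial and blood cells 26.9 to 38.4, 32.6 to 50.9 and 24.1 to 41.0. The ranges of the genotypes overlapped except those of the Sertoli genes in WT and KO and in KO and HxD. Since poised promoters carry the mark, a peak at a marker does not show that its cell type was there, and the part of other cell types in the WT-only regions was not tested.

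The reverse pattern was rare at these list lengths. All 6 mutant libraries and no WT library shared 17 regions, 0.0645% of the 26351 that all 6 mutants had, 73 regions were in every KO library alone (0.22%) and 14 in every HxD library alone (0.0408%). The count of 17 asks for a peak in 6 libraries and none in 3, and the WT-only rule for a peak in 3 and none in 6. These 2 counts therefore differ in strictness. The KO and HxD counts ask for 3 and 6 libraries, like the WT-only rule. Just outside the rule, 4089 regions were in every WT and exactly 1 mutant library, which was KO replicate 2 for 1265, HxD replicate 3 for 987 and HxD replicate 1 for 942. A further 6421 were in exactly 2 WT and no mutant libraries. Both neighbouring sets were like the WT-only regions in strength and place: the median of the lowest WT fold was 5.09 and 4.87, against 4.87, and 80.0% and 79.0% lay between genes, against 82.2%. Within the regions of every WT library, those shared with all 6 mutants were the largest group, with 25421.

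Each library was also read against regions chosen from the other 8, so that it had no part in the choice. Of 4289 regions chosen without WT replicate 3, 74.6% had a peak in it (95% exact binomial interval 73.3% to 75.9%). That interval treats regions as independent and leaves out the spread between libraries. The shares were 60.5% of 5276 for WT replicate 1 and 49.8% of 6475 for WT replicate 2. WT replicate 2, which has the shortest WT list, had the lowest of these shares. The same libraries had a peak in 97.1%, 92.3% and 88.6% of the regions that the other WT libraries shared with at least 1 mutant. Left-out mutant libraries had a peak in 10.5% of 3577 regions (KO replicate 1), 28.3% of 4467 (KO replicate 2) and 10.5% of 3578 (KO replicate 3). For HxD replicates 1, 2 and 3 the shares were 22.7% of 4145, 4.33% of 3348 and 23.6% of 4193. At every-WT regions shared with at least 1 other mutant these 6 libraries had a peak in 62.7% to 87.1%. All 6 mutant shares lay below all 3 WT shares, but the rules for the regions were unlike. A left-out WT library was read at regions in the other WT libraries and in no mutant. For a left-out mutant library the regions were in every WT and in no other mutant library. The longest mutant list, KO replicate 2, had the highest of them and the shortest, HxD replicate 2, the lowest. Between these the order did not follow length: KO replicates 1 and 3 had longer lists than HxD replicates 1 and 3, and lower shares. KO replicate 1 also had the shortest peaks, with a median of 436 bp. What list or peak length adds to these shares was not tested.

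Most WT-only regions lay between genes, and many in gene deserts. Place is given by coding genes alone: a promoter was 1 kb on either side of a coding gene's start, and an intergenic region may hold a noncoding gene. Of the 3203, 2632 (82.2%) were intergenic, 517 (16.1%) overlapped a gene body and 54 (1.69%) a promoter, while of the other every-WT regions 53.4% lay between genes, 21.6% in genes and 24.9% at promoters. The median distance to the nearest coding gene was 129101 bp, against 3742 bp, and 53.0% lay over 100 kb from one, against 19.9%. Over 500 kb from any coding gene were 828 WT-only regions (25.9%, against 5.76%), and 351 were over 1 Mb away. Around a WT-only region a median of 2 coding genes lay within 500 kb, and around the other every-WT regions 8.

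Read the other way, the share of every-WT regions that no mutant library had rose with distance from genes. It was 0.379% of 14237 at promoters, 4.03% of 12827 in gene bodies, and between genes 3.93% up to 10 kb, 4.95% from 10 to 100 kb, 9.78% from 100 to 500 kb and 20.2% of 4101 over 500 kb. Promoters, gene bodies and deserts kept this order among regions of like strength. Where the lowest of the 3 WT folds was 4 to 6, the share was 0.877% at promoters, 6.40% in gene bodies and 28.6% over 500 kb from genes. Where it was 6 to 8, the 3 shares were 0.351%, 2.63% and 17%. At 10 or more, 9 of 5919 every-WT regions were absent from all mutants, and at promoters 0 of 2240, which allows a share of up to 0.134%.

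**Figure D2:**
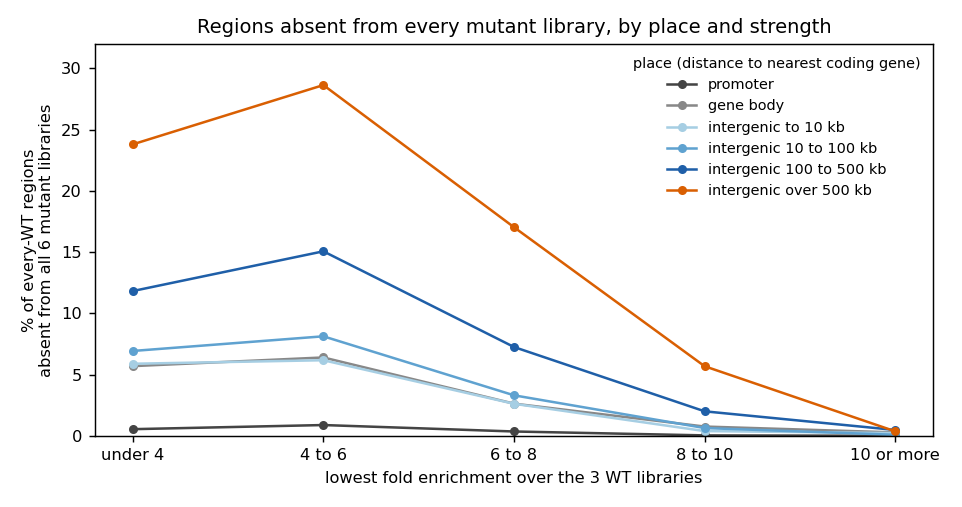
Percent of every-WT regions that no mutant library had (y axis) by the lowest fold over the 3 WT libraries (x axis, 5 bins), with 1 line for each place and distance to the nearest coding gene. Regions over 500 kb from genes lie highest in the first 4 bins, at 28.6% for folds of 4 to 6, promoters stay below 1%, and all lines are under 1% at folds of 10 or more.

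WT-only regions were weaker and shorter than other every-WT regions, and the rule itself bears on both. It favours weak peaks, and the other regions also take in mutant peaks, which can only lengthen them. Strength is the authors' fold enrichment at the summit, a linear ratio over the local background, taken from the highest peak of a region in each library. Its median over the WT-only regions was 6.37 in WT replicate 1, 6.05 in replicate 2 and 6.91 in replicate 3, and over the other every-WT regions 8.54, 8.04 and 10.5. Within their own lists the WT-only medians stood at the 41.5, 36.0 and 49.1 percentiles, which is below the middle of the lists of replicates 1 and 2 and at the middle of that of replicate 3. Their −log10 q had medians of 7.41, 6.84 and 12.3. The lowest of the 3 folds had a median of 4.87 with quartiles of 4.05 and 5.85. It was at least 3.97, the highest 5th percentile of fold among the 6 mutant lists, for 78.0% of the WT-only regions, and at least 7.43, the highest median fold of a mutant list, for 156 (4.87%). Of the 18676 every-WT regions at or above 7.43, 0.835% were absent from all mutants. Folds are relative to the background of each library, so they set no common level across libraries.

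The highest fold of a WT-only region was in WT replicate 3 for 46.4%, in replicate 1 for 29.5% and in replicate 2 for 24.1%, and the highest was a median of 1.64 times the lowest (1.84 at other every-WT regions). Summits of the 3 libraries spread over a median of 273 bp, against 384 bp in the other regions, which were longer (median 1563 bp against 854 bp). In 94.1% each WT library had exactly 1 peak, and 92.1% held bases that all 3 libraries covered. The other 254 were joined by peaks that overlap in a chain. A mutant peak lay within 10 kb of 1746 WT-only regions (54.5%) and within 1 kb of 279 (8.71%). How often other autosomal positions have a mutant peak so near was not measured, so these shares have no background beside them. The median distance to the nearest peak of a mutant library ran from 17344 bp (KO replicate 2) to 40612 bp (HxD replicate 2).

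**Figure D3:**
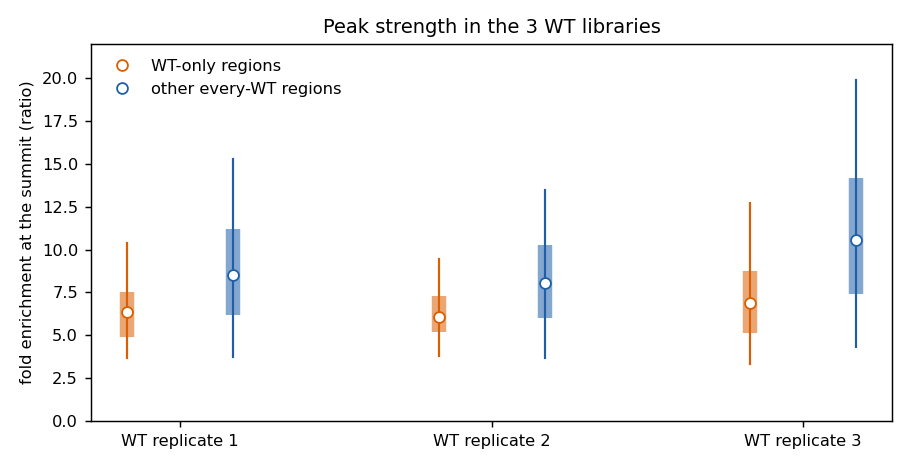
Fold enrichment at the summit (y axis, linear) in WT replicates 1 to 3 for WT-only regions (3203) and other every-WT regions (56861); circles are medians, thick bars the quartiles and thin lines the 5th to 95th percentiles. WT-only medians of 6.37, 6.05 and 6.91 lie below those of the other regions in each library, and the ranges overlap widely.

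The strongest WT-only regions, ranked by their lowest WT fold, were led by a region 824 bp from Duxf3, a double homeobox gene of the early embryo, on chromosome 10 (58227946 to 58228680), with folds of 11.4, 13.3 and 16.2 in WT replicates 1 to 3. The second lay in Zfp992, a zinc finger gene on chromosome 4 (146463550 to 146464342), with 11.2, 11.3 and 13.8. Both genes belong to families with near-identical copies, and the sources used here do not say how reads with several matches were treated, so these values are uncertain. Lrp1b, a large endocytic receptor of the LDL receptor family, held 2 of the 12 strongest. Its region at 40728728 to 40729966 on chromosome 2 had folds of 11.2, 11.3 and 10.9, and that at 41603688 to 41604548 had 10.5, 10.2 and 13.1. The nearest peak of any mutant library was 21.8 kb from the first and 3.57 kb from the second. A region 314.8 kb from Pcdh10, a protocadherin of developing brain (chromosome 3, 45749392 to 45750632), had 10.9, 10.7 and 12.

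The other 7 of the 12 were all intergenic. In a region 291.5 kb from Tecrl, a heart-expressed reductase-like gene (chromosome 5, 82985444 to 82986611), WT replicate 1 stood apart, with folds of 15.7, 10.6 and 10.3. In one 201.1 kb from Vwc2, a secreted BMP antagonist (chromosome 11, 10911453 to 10912758), WT replicate 3 was highest, with 10.5, 11.6 and 16.7. It was also highest, at 23.3 against 12.3 and 9.83, in a region 582.5 kb from Rgs18, a regulator of G protein signalling (chromosome 1, 145357932 to 145358939). Replicates lay close together 548.6 kb from Kctd16, an auxiliary subunit of GABA receptors (chromosome 18, 41095864 to 41096992; 10.1, 10.2 and 10.5), and 399.6 kb from Htr1a, a serotonin receptor (chromosome 13, 105847689 to 105848585; 10.5, 10.2 and 9.82). The last 2 were 35.7 kb from Gsap, a gamma-secretase activating protein (chromosome 5, 21139198 to 21140279; 10.9, 12.3 and 10.2) and 230.6 kb from Cdh7, a cadherin (chromosome 1, 110375867 to 110376970; 9.74, 10.6 and 13.1). In these 7, the nearest mutant peak was 1.39 kb (Gsap) to 40.0 kb (Htr1a) away.

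Genes of neural adhesion and synapses were the nearest coding gene of 607 WT-only regions (19%), at 79 of the 129 genes on the list. Of the 3418 every-WT regions nearest to such a gene, 17.8% were absent from all mutants, against 5.33% over all genes. The median distance of the 607 was 446721 bp. Among every-WT regions over 100 kb from a gene, the share was 21.8% of 2105 on the list and 11.4% of 10898 off it. Among those within 100 kb and outside promoters, it was 12.5% of 1187 and 4.12% of 31637. The median of the lowest WT fold over all these every-WT regions was 5.66 on the list and 5.68 off it beyond 100 kb, and 5.73 and 5.88 within. Regions beyond 100 kb were not matched for distance. Over all genes the share was 9.78% from 100 to 500 kb and 20.2% over 500 kb. In gene bodies, and between genes up to 100 kb, it was 3.93% to 4.95%. The median distance of every-WT regions was 248536 bp on the list and 5332 bp over all genes. Whether the difference beyond 100 kb remains at like distance was not tested. No test of the list was made, and it was chosen with earlier results of these data known. Regions of 1 desert share their neighbourhood, so they are not independent.

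Families within the list differed, as grouped after their values were seen. Cadherins (Cdh), adhesion proteins of cell junctions and synapses, were nearest to 141 WT-only regions, 22.7% of their 621 every-WT regions, with 11 of 13 genes represented. Non-clustered protocadherins (Pcdh) had 138 of 596 (23.2%) at 8 of 8 genes, and the Slitrk genes, synaptic membrane proteins, 42 of 177 (23.7%) at 4 of 4. Glutamate receptor genes had 47 of 280 (16.8%), contactins 41 of 272 (15.1%), Eph receptors 23 of 166 (13.9%), teneurins 20 of 158 (12.7%), GABA and glycine receptor genes 8 of 77 (10.4%) and semaphorins 4 of 69 (5.80%). By gene, and likewise chosen after seeing the counts, Pcdh7 had 30 of 104, Cdh9 28 of 94, Pcdh9 26 of 115, Pcdh17 23 of 117 and Pcdh10 21 of 63. Genes off the list included Brinp3, a neural gene (21 of 72), Amy2b, a pancreatic amylase (19 of 56), and Sis, an intestinal disaccharidase (15 of 44). The last 2 also had distant regions, with medians of 738712 and 691987 bp for their WT-only regions. Lrrc4c (17 of 87), Adgrl3 (16 of 88), Cadm2 (14 of 59) and Ptprd (14 of 65), genes of neural adhesion, were off the list as well. The list is thus incomplete, and the shares off it include such genes.

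Chemosensory receptor genes, which lie in tandem arrays and act mainly in sensory tissue, were nearest to 136 WT-only regions, at 129 of 1513 genes. They made up 14.3% of the 954 every-WT regions nearest to such genes, close to the share for the adhesion list, yet without the distance: the median was 6599 bp, and none of the 136 lay over 100 kb from the gene. Within 100 kb and outside promoters, 14.1% of 832 were absent from all mutants, against 4.17% of 31992 for other genes. The strongest was in Olfr122 on chromosome 17 (37771726 to 37772667), with folds of 9.0, 9.47 and 14.6. Next came regions near Olfr273 on chromosome 4 (52864002 to 52865022; 8.26, 8.04 and 11.3) and near Olfr1188 on chromosome 2 (88544766 to 88545667; 9.37, 7.68 and 10.2). WT replicate 3 was the highest in all 3. Olfr genes have close paralogues, so their peaks share the uncertainty of repeated sequence.

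Chemosensory genes also made up 19 of the 54 WT-only regions at promoters, 18 of them Olfr genes. Of 104 every-WT promoter regions nearest to chemosensory genes, 18.3% were absent from all mutants, and of the other promoter regions 0.248%. The strongest at a promoter was near Skint1, a gene of thymic and skin epithelium, on chromosome 4 (112003738 to 112005680; folds of 9.37, 8.04 and 10.2). It was followed by Olfr978 (chromosome 9, 39993698 to 39994861; 7.51, 7.68 and 10.2), whose window above has 1 CG, and by Ccl3, an inflammatory chemokine (chromosome 11, 83648349 to 83649116; 7.51, 9.83 and 7.64). Olfr448 had 8.63, 8.40 and 7.28, and Olfr129 had 7.14, 8.04 and 10.9. Olfr434 had 7.51, 6.60 and 9.46. Olfr212, whose window is the CG-rich exception among the odorant receptors shown, had 6.40, 9.11 and 6.55, and Scgb3a1 had 6.40, 7.68 and 7.46. For these 8 the nearest mutant peak was 0.883 kb (Olfr448) to 20.0 kb (Ccl3) away. In lowest fold all 8 lay below the 12 strongest regions, and 4 of the 8 had their highest fold in WT replicate 3. By contrast the Ddx4 promoter region had folds of 10.1, 9.47 and 8.26 in WT, 15.1, 19.2 and 8.35 in KO and 17, 8.80 and 7.93 in HxD.

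Other WT-only promoters, named here after their values were seen, include Il6, a cytokine (13.1, 5.16 and 4.33), Adipoq, an adipocyte hormone (7.51, 5.03 and 5.46), Tyr, the pigment enzyme tyrosinase (6.03, 6.60 and 4.72), and Pou1f1, a pituitary transcription factor (5.29, 4.80 and 12.7). In Il6 and Pou1f1 a single WT library was far above the other 2. Hoxc9, a homeobox gene of the trunk, had 7.92, 6.96 and 5.82, and a mutant peak lay only 0.617 kb from its region. For the others named here the nearest mutant peak was 5.22 kb (Pou1f1) to 27.0 kb (Il6) away.

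The other lists are read against the 5.33% over all genes, and most are small. Developmental regulators were nearest to 47 WT-only of 1217 every-WT regions (3.86%), at 26 of 127 genes. None of the 47 was at a promoter, but the list does not hold Hoxc9 or Pou1f1, whose promoters are given above. The strongest was 774.4 kb from Zfhx4, a zinc finger homeobox gene (chromosome 3, 4442661 to 4443793; 8.63, 7.68 and 9.82). Germ cell and prospermatogonial genes had 3 of 216 (1.39%), 460.8 kb from Sox2, a pluripotency factor (7.51, 7.32 and 6.55), 30.8 kb from Piwil1, a piRNA-binding protein (4.55, 10.9 and 7.46), and 21.7 kb from Tfap2c, a germline specifier (4.05, 10.2 and 5.15). The last 2 were uneven, with WT replicate 2 highest. Meiotic genes had 3 of 71 (4.23%), of which 1 lay in Mei4, needed for meiotic DNA breaks (6.03, 7.68 and 6.91), 1 lay 116.9 kb from it (6.12, 3.8 and 6.63) and 1 lay 69.1 kb from Prdm9, which sets the sites of those breaks (2.82, 4.95 and 8.0).

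Imprinted genes had 5 of 128 (3.91%), at 3 genes. A region in Snrpn (chromosome 7, 60067988 to 60068878) had folds of 7.88, 10.2 and 6.07, and 1 lay 27.4 kb from Rasgrf1 (chromosome 9, 89881367 to 89882152) with 5.29, 5.16 and 10.5. Somatic lists had 2 of 67 for Sertoli genes, with Fshr as nearest gene of both (5.83, 5.88 and 9.09, and 7.14, 5.26 and 5.07), 2 of 101 for Leydig and interstitial genes, 83.8 and 58.3 kb from Col3a1 (4.72, 7.68 and 10.9, and 6.40, 4.44 and 8.73), and 1 of 85 for endothelial and blood genes. The regions nearest to Fshr lay 292.4 and 338.5 kb away. Defensins, antimicrobial peptides in tandem arrays, had 4 of 40 (10.0%), the strongest 403.9 kb from Defb41 (6.40, 6.24 and 6.55). Housekeeping genes had 0 of 44, which allows a share of up to 6.82%, and clustered protocadherins 0 of 16 by nearest gene, which allows up to 18.8%. Several genes overlap in that cluster, however: 1 WT-only promoter region on chromosome 18 (37333763 to 37334446; 6.77, 6.24 and 8.73), counted to Gm37013, also overlapped Pcdhb6. A mutant peak lay 0.889 kb from that region. Shares of these small lists rest on few regions.

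With gaps of at most 100 kb, 1838 WT-only regions (57.4%) stood alone and 1365 (42.6%) formed 525 runs of 2 or more, of which 32 had 5 or more. The share in runs was 12.9% with lists of equal length, where fewer regions remain. The median gap between neighbouring WT-only regions was 267444 bp. The other every-WT regions were far denser, with a median gap of 20676 bp and 98.0% within 100 kb of another, so runs are read against place rather than against spacing. Of 2407 windows of 1 Mb that held an every-WT region, 1063 held no WT-only region, and 162 held 5 or more. Those 162 windows, picked by that count, contained 35.2% of the WT-only regions.

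The longest run, of 9, lay in the desert between Tenm3, a teneurin, and Aga on chromosome 8 (51372873 to 51657535). All but 1 of its 10 every-WT regions were absent from every mutant. WT replicates 1 to 3 had 16, 16 and 22 peaks there, the KO replicates 3, 3 and 0 and the HxD replicates 1, 1 and 2. A run of 8 lay between Prmt6 and Amy2b on chromosome 3 (112264455 to 112452181), with 17, 15 and 17 peaks in WT, 5, 5 and 2 in KO and 6, 1 and 5 in HxD. Another run of 8 lay between Cdh19, a cadherin, and Dsel on chromosome 1 (111201735 to 111554264), with 24, 19 and 33 peaks in WT, 9, 5 and 3 in KO and 5, 3 and 9 in HxD. None of the 5 runs held a coding gene. Of 4 runs of 7, that between Manea and Epha7, an Eph receptor, on chromosome 4 (27221716 to 27406599) had 16, 12 and 15 peaks in WT, 0, 2 and 0 in KO and 3, 0 and 4 in HxD. Another, between Nxph1, a secreted neural protein, and Ndufa4 on chromosome 6 (9834758 to 10088178), had 12, 11 and 17 in WT, 0, 3 and 3 in KO and 2, 0 and 2 in HxD. These runs were picked by the rule, so WT had to be higher there, and the groups do not overlap. Per 10000 autosomal peaks of a library, the first run had 1.74 to 1.97 peaks in WT and 0 to 0.429 in the mutants, which describes the run that the rule chose and no more.

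**Figure D4:**
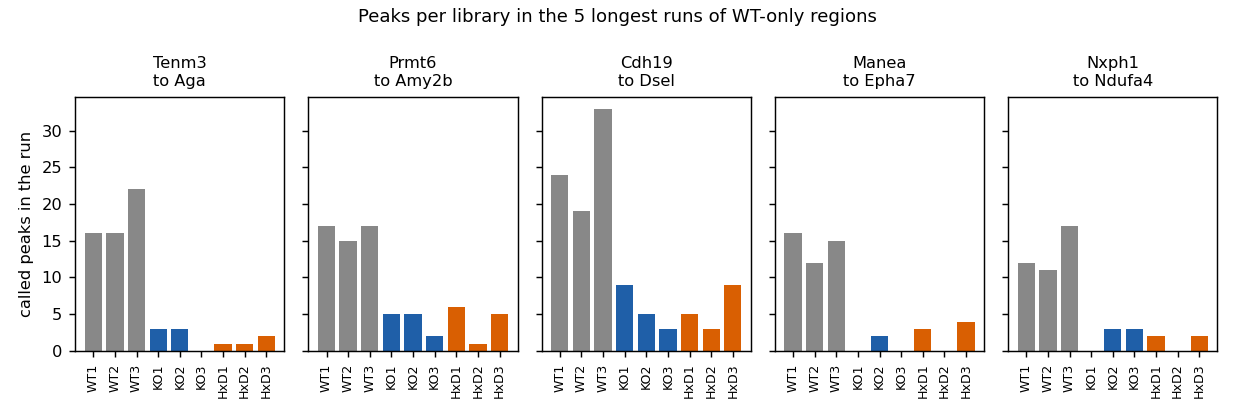
Called peaks (y axis, bars from 0) in each of the 9 libraries within the 5 longest runs of WT-only regions, named by the coding genes on either side; grey bars are WT, blue KO and orange HxD. In each run every WT bar stands above every mutant bar, from 11 to 33 peaks against 0 to 9.

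The densest windows of 1 Mb were of the same kind. The window from 112000001 to 113000000 on chromosome 3, with no coding gene, had 15 WT-only of 44 every-WT regions. On chromosome 15, 16000001 to 17000000, which contains Cdh9, had 13 of 37, and on chromosome 5, 59000001 to 60000000, beyond Pcdh7, had 13 of 34. The windows holding the Manea to Epha7 desert (27000001 to 28000000 on chromosome 4) and Epha5 (84000001 to 85000000 on chromosome 5) had 12 of 39 and 12 of 27.

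Chromosomes differed in their share of WT-only regions. Chromosome 14 had 231, or 7.96% of its every-WT regions, followed by chromosome 1 (335, 7.4%), chromosome 3 (291, 7.27%) and chromosome 12 (169, 6.91%). The lowest were chromosome 19 (34, 2.24%), chromosome 11 (81, 2.51%) and chromosome 7 (129, 3.69%). The 4 high chromosomes had 5.66 to 6.82 coding genes per Mb and the 3 low ones 11.5 to 14.0. Across the 19 autosomes the share fell with gene density (Pearson r = −0.75, Spearman rho = −0.69, given as a description, since all points come from the same 9 libraries). Chromosome 18 was gene-poor too, with 5.64 coding genes per Mb, and yet had 4.33%. Within intergenic regions alone the share still ran from 3.65% on chromosome 19 to 10.9% on chromosome 14.

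**Figure D5:**
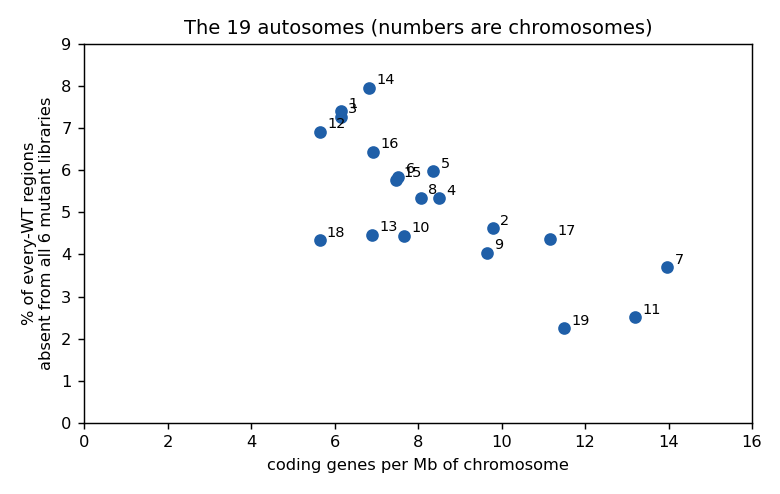
Percent of every-WT regions that no mutant library had (y axis) against coding genes per Mb (x axis) for the 19 autosomes, numbered. Gene-poor chromosomes 14, 1, 3 and 12 lie highest, at 6.91% to 7.96%, and gene-rich chromosomes 19, 11 and 7 lowest, at 2.24% to 3.69%.

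The count of WT-only regions changed more with list length than their place did. When each list was reduced to its 48468 peaks of lowest q, the length of the shortest, 536 regions were in every WT and no mutant library, and 277 were in every mutant and no WT library. These were 2.06% of the regions in every WT and 1.35% of those in every mutant library. Of the 536, 175 (32.6%) overlapped one of the 3203, and these made 5.46% of the 3203. The 536 lay where the 3203 did, 82.3% between genes, 28.5% over 500 kb from one and 18.8% nearest to a gene of the adhesion list. The 277 of the opposite kind were 45.8% at promoters and 33.6% between genes, 2.17% were over 500 kb from a gene and 1.81% nearest to an adhesion gene. With equal lists the regions in every WT library were 34.0% at promoters, 46.4% intergenic, 4.84% over 500 kb from a gene and 4.39% nearest to an adhesion gene. For those in every mutant library the shares were 57.1%, 26.5%, 0.545% and 1.37%. Beside their own background, both the 536 and the 277 lay less often at promoters and more often over 500 kb from a gene.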

How the data were processed

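CUT&RUN for H3K4me3 was deposited as 1 peak list per library (3 WT, 3 KO, 3 HxD) in MACS2 narrow peak format. Per the submitters' processing notes, with build mm10, the tools included MACS2 2.1.0, Bowtie2 2.5.0, Trim Galore, deepTools 3.5.1, SAMtools 1.16.1 and bedtools 2.27.1. Parameters, and whether IgG served as control, are not given in these sources. Each peak carries the authors' score, their fold enrichment at the summit as a ratio, and their −log10 p and −log10 q. The deposited lists start at a −log10 q of 2.00 to 2.02. Depth is unknown, since the lists give no read counts.

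Peaks on 19 autosomes were merged where they overlapped by at least 1 bp (Python 3.11.15, numpy 2.4.6, pandas 2.3.3, scipy 1.17.1), and bedtools 2.31.1 gave the same 179043 regions and 3203 members. The steps were also tested on simulated lists. Any 2 lists shared at most 6 peaks of identical position. Coordinates are mm10, 1-based. Genes are those of the RefSeq table of GRCm38.p6. Starts came from the RefSeq promoter table for 16457 of 20665 autosomal coding genes, and for the others both gene ends were used. Shares of a set are shares of regions, and intervals cover counting error only.

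Members, lists and the rule for naming were chosen with earlier results of these data known. Named were the 12 members with the highest lowest WT fold, the 8 such at promoters, the 5 longest runs, and up to 3 members per gene list. Some members that this rule names are not reported here.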

Additional observations from a re-analysis of the deposited data

Results flagged for a closer look

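The sex chromosomes lie outside the regions described above, and the same rule found regions there. On chromosome X, 201 of 1475 every-WT regions (13.6%) were in no mutant library, and on chromosome Y 4 of 19 (21.1%), against 5.33% on the autosomes. They are listed because these chromosomes were left out of the regions above. Whether these shares differ from the autosomal share was not tested, and that of Y rests on 19 regions.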

How the results depend on the processing

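The place of the WT-only regions changed little with the processing, and their number much. The intergenic share of 82.2% ranged from 80.5% to 83.1% over 20 alternatives. It left the 95% binomial interval of the main value (80.8% to 83.5%) without WT replicate 2, at 80.5%, and leaving out each of the 9 libraries gave 80.5% to 82.1%. The count of 3203 was 536 with lists of equal length and 1399 when peaks had to cover at least 50% of the region in a library that has it. Leaving out a library gave 3348 to 6475, with 5276 and 6475 without WT replicates 1 and 2, where only 2 WT libraries have to share a region. It was 2743 at a −log10 q of at least 5.

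The share of every-WT regions absent from all mutants, 5.33%, was 5.63% at a −log10 q of at least 5, 2.06% with lists of equal length, 5.57% with a common fold minimum of 3.97, 3.99% when peaks had to cover at least 50%, 4.87% when no mutant peak could lie within 1 kb, 5.54% with chromosomes X and Y and 5.04% when all WT libraries had to share bases, an alternative added after seeing the data. Without 1 library it was 5.57% to 9.17%, the highest without WT replicate 2. The reverse count of 17 was 277 with lists of equal length and 0 under the coverage rule, which asks all 6 mutants to cover 50% of a region. Without 1 library it was 19 to 66: 30, 26 and 66 without WT replicates 1, 2 and 3, 28 without KO replicate 1, and 29 and 50 without HxD replicates 2 and 3. The share of members within 100 kb of another, 42.6%, was 12.9% with lists of equal length and 24.4% under the coverage rule, where fewer regions remain. The median of the lowest WT fold, 4.87, was 7.68 with lists of equal length. The median distance to a coding gene ranged from 89100 to 144301 bp.

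No paired analysis was possible because no result comes from a test: the replicate numbers enter no fit. With read depth unknown, absence of a peak means only that none was called.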

Other observations

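Noncoding genes were seldom under the WT-only regions. Long noncoding RNA genes overlapped 238 of the 3203 (7.43%) and 14.6% of the other every-WT regions, and miRNA genes 1 (0.0312%) and 192 (0.338%). Pseudogenes overlapped 110 (3.43%), close to the 3.61% of the other every-WT regions.

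Of the 17 autosomal regions in every mutant and no WT library, 7 lay in gene bodies, 6 between genes and 4 at promoters. They include a region near Rtl1, an imprinted retrotransposon-derived gene on chromosome 12 (109527294 to 109530501), 1 near Bmp5, a bone morphogenetic protein on chromosome 9 (75924764 to 75925265), and promoter regions of Wdr64, Zfp385b, Sfi1 and Snrnp70, named after their values were seen.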
